A study of Mus musculus with 17 samples.

Results

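The cytosolic ribosomal protein genes were followed across the hypothalamus of control, streptozotocin-treated and ob/ob mice. They were taken as all probe sets carrying a single platform gene symbol that began with Rpl or Rps and a digit, or with Rplp, without the Rps6k kinases and without symbols ending in -ps. This gave 98 probe sets for 47 of the 12393 genes on the array: 20 large subunit genes, 19 small subunit genes, the stalk genes Rplp0 and Rplp2, and 6 paralogs that resemble a ribosomal protein. All 98 probe sets matched a RefSeq mouse gene by its Entrez identifier. After probe sets with low signal were set aside, 80 probe sets of 44 genes were tested among 13576 in all. The 18 others had mean signals of 13.8 to 354, and Rpl14, Rpl39l and Rpl3l were left without a tested probe set.

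The RNA came from 17 hypothalami of male C57Bl/6 mice aged 9 weeks, each on its own Affymetrix array. The control group held 6 wildtype mice that received vehicle. The STZ group held 6 wildtype mice given streptozotocin, which destroys pancreatic beta cells, as 1 intraperitoneal dose of 200 µg/g body weight. The ob/ob group held 5 mice of that genotype, which make no functional leptin and become obese and insulin resistant, and the labels name no injection for them individually. The hypothalamic peptide genes were present, with Pomc at a geometric mean signal of 1680 and Hcrt, the orexin precursor, at 7620 in the controls. Array medians lay between 638 and 707 and pairs of arrays correlated at 0.972 to 0.989, with 0 identical pairs. In whole tissue, fewer cells of a type and less RNA per cell cannot be told apart.

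The ribosome reads messenger RNA in its small subunit and joins amino acids in its large subunit, and each protein of both subunits is needed in about equal copies. Cells adjust the making of these proteins mostly at translation. Their messengers begin with a run of pyrimidines, the terminal oligopyrimidine (TOP) motif, which lets the kinase complex mTORC1, itself fed by insulin, leptin and amino acid signals, admit or hold back the whole family through the binding protein Larp1. An array measures the amount of these messengers and not how well they are translated.

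The annotated starts of the genes measured here were searched for such runs. RefSeq start regions (build GRCm38.p6, 250 bases before to 50 after the annotated start) were at hand for 41 of the 47 genes. A pyrimidine tract, here a C followed by at least 5 further C or T on the transcribed strand within 25 bases of the start, was found for 28 of them, or 68.3%, against 38.7% of 17492 coding genes. Many of these tracts ended before or began after the start, and one that took in the annotated start base itself was found for 12 of 41 genes, or 29.3%, against 6.19%. The core site of ETS factors, CCGGAAG on either strand anywhere in the 300 bases, was found in 48.8% against 12.9%. TATAAA stood in 14.6% against 14.8%, CCAAT in 26.8% against 42.3% and GGGCGG in 56.1% against 49.2%, also on either strand. These are matches of letters and not measured sites. Windows of 60 bases, 40 before and 20 from the start on, are shown for 4 genes with a tract, in capitals, and for 2 genes without one that figure in the comparisons below (Rps3a1 and Rpl22), all in lower case. They read 5′ to 3′ on the strand of the gene.
Rpl13a, chr7:45128726-45128785, minus strand: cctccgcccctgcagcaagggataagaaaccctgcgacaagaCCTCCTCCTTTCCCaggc
Rpl35, chr2:39005112-39005171, minus strand: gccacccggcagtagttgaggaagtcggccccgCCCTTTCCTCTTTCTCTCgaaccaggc
Rps6, chr4:86857348-86857407, minus strand: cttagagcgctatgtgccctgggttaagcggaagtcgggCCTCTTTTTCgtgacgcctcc
Rps27, chr3:90213629-90213688, minus strand: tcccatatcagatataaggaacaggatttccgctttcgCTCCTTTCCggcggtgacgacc
Rps3a1, chr3:86142649-86142708, minus strand: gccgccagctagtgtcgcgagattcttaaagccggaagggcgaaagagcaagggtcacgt
Rpl22, chr4:152325686-152325745, plus strand: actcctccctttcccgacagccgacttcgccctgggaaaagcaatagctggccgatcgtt
The tract was 14 bases long in Rpl13a, 18 in Rpl35, 10 in Rps6 and 9 in Rps27.

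The ribosomal protein messengers were bright and steady in all 3 groups. Of the 80 tested probe sets, 77.5% were among the brightest 10% of all tested probe sets, with geometric means from 584 to 36800. Their spread between mice of a group was small: the median standard deviation (SD) was 0.0864 on the log2 scale, against 0.139 over all tested probe sets, and 69 of 80 lay under that overall median. The 394 other probe sets as bright as the upper part of the family, at or above its median signal of 13900, had a median SD of 0.083. The low spread of the family was thus also found in other transcripts of that brightness.

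**Figure D1:**
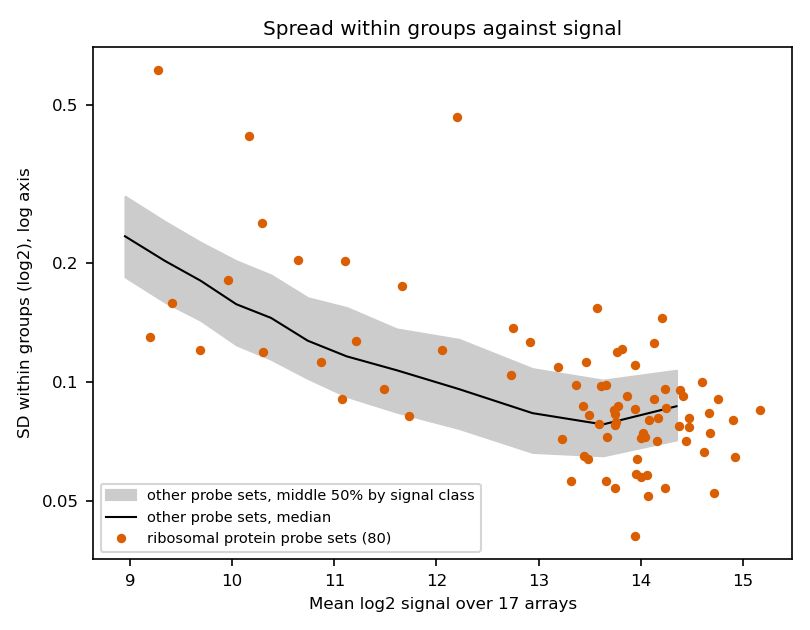
SD within groups on the log2 scale (log axis) against mean log2 signal for the 80 ribosomal protein probe sets (points), with the median and middle 50% of the other tested probe sets in 12 classes of signal. Most members sit at the bright end with SDs near the median of 0.0864, and a few dimmer ones reach up to 0.611.

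With 1 representative probe set for each gene, the highest signals of the family were those of Rps29, a zinc-binding protein of the small subunit, Rpl38 and Rps28, although signals of different probe sets are not amounts of RNA that can be ranked. For Rps29 (1438859_x_at) the signal ran from 33400 over a median of 36500 to 41000 in the controls and from 34000 over 37800 to 39200 in STZ, and it was 39900, 35300, 37200, 34400 and 35800 in the ob/ob mice. The groups overlapped throughout, and the fold changes against control were 0.03 ± 0.0476 and -0.00 ± 0.0499 (log2, standard error, SE). At the dim end by the same rule were the tissue-restricted paralogs Rpl39l and Rpl3l, neither of which was tested, and the large subunit gene Rpl41. The representative probe set of Rpl41 (1433530_at) had a geometric mean of 213 over all arrays and was not tested. Its 1455578_x_at had 26000, so a dim value can belong to the probe set and not to the gene. Rpl39l, known for its expression in testis, ran from 109 to 272 in controls, 36.1 to 245 in STZ and 109 to 199 in ob/ob. Rpl3l, known from heart and skeletal muscle, ran from 24.6 to 260, 25.7 to 141 and 28.4 to 159. The groups overlapped for both.

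In STZ against control, 0 of the ribosomal protein probe sets were called by limma at an adjusted p of 0.05. Over all probe sets 7 did, or 0.0516%. The median log2 fold change of the 80 was 0.0111, against 0.000599 over all probe sets tested, and 35 of 80 were below 0, against 49.7%. At an unadjusted p of 0.05, 1 was higher and 0 were lower, where 3.87% and 4.38% of all probe sets were, and the smallest adjusted p was 0.476. None had groups without overlap, higher or lower, where 0.265% and 0.302% of all did. The median was 0.00978 over the 34 large subunit and 0.0219 over the 37 small subunit probe sets. Over the 7 paralog probe sets it was -0.0689, with 6 below 0. The fold changes were also bounded. For 74 of the 80, or 92.5%, the 95% confidence interval lay wholly within a 1.25-fold difference either way. The share was 72.7% over all tested probe sets and 98.5% over the 394 others at or above the family's median signal. For 78 members the interval lay within 1.5-fold.

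The probe set under 0.05 was one of 3 for Rpl7, a protein of the large subunit. Its signals (1426163_x_at) were 9520, 9910 and 10400 (lowest, median and highest) in the controls and 10300, 10600 and 11000 in STZ, while the ob/ob mice had 10600, 9230, 10100, 10400 and 9840. Nearly all STZ mice were thus at or above the highest control, with the ob/ob mice spread over the control range and past both its ends. The fold change was 0.10 ± 0.0375 (adjusted p = 0.476). The other Rpl7 probe sets gave -0.01 ± 0.0316 (1415979_x_at) and -0.01 ± 0.0401 (1426162_a_at) in the same comparison.

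Rpl39, which lines the exit tunnel for the growing chain, had the highest fold change in STZ, 0.19 ± 0.107 (adjusted p = 0.673), from signals of 1280, 1620 and 1730 in the controls against 1470, 1790 and 2040. The groups overlapped widely. Rps6, whose protein is phosphorylated by the S6 kinases below mTORC1, had 941, 1400 and 1560 in the controls against 834, 1350 and 1460 in STZ. The ob/ob mice had 1230, 1160, 1240, 1130 and 1360. Its fold changes were -0.12 ± 0.13 and -0.11 ± 0.136, within their error. The lowest value in STZ came from a noisy probe set of Rps10 (1439374_x_at), -0.38 ± 0.23 with control signals from 3070 to 10100. Its gene's other 4 tested probe sets lay between -0.01 and 0.04.

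**Figure D2:**
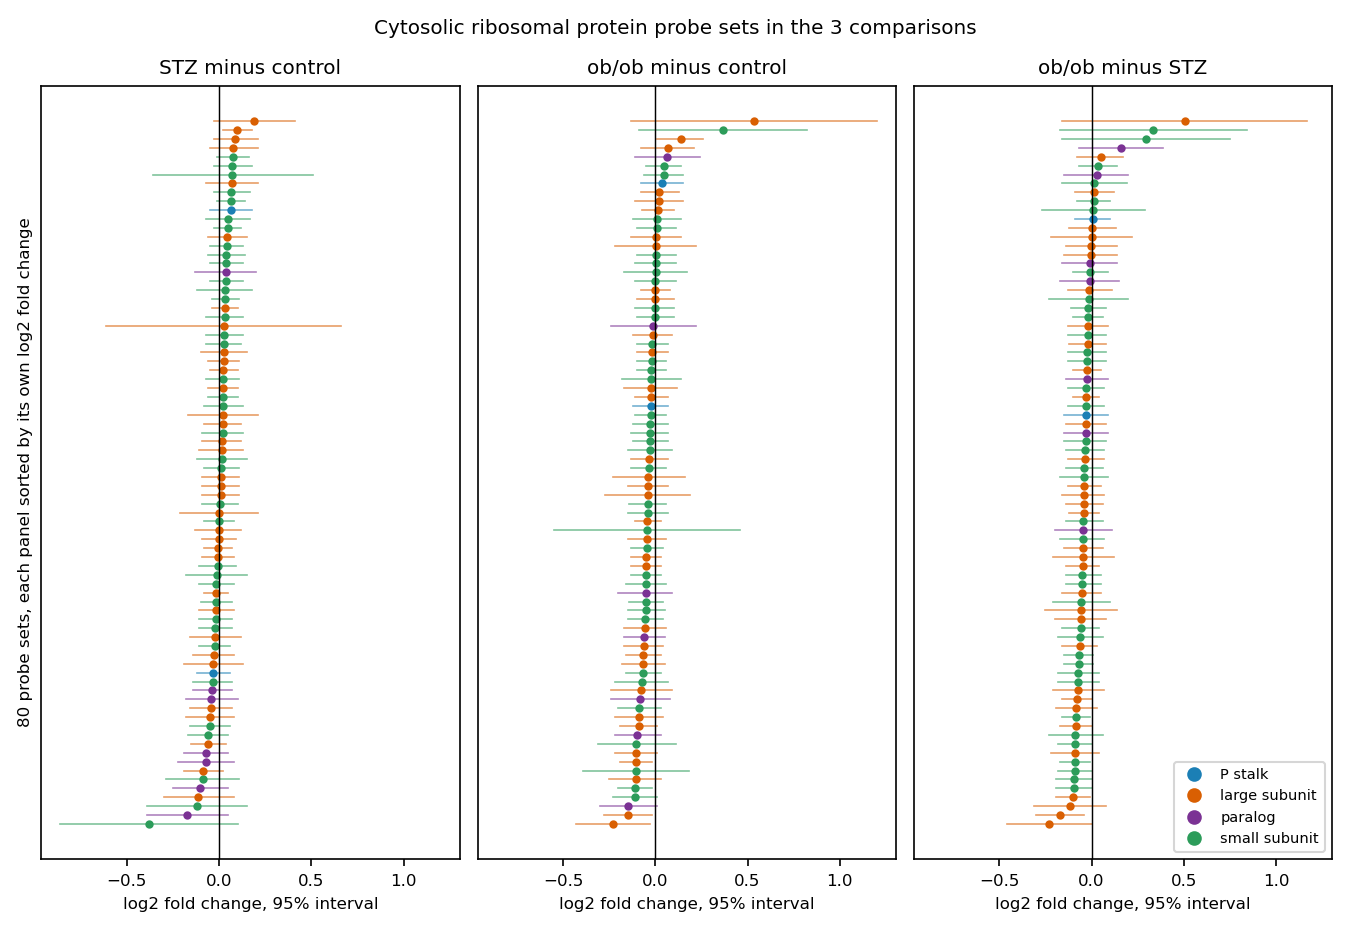
Log2 fold changes (points) with 95% confidence intervals (lines) of the 80 tested ribosomal protein probe sets, coloured by subunit and sorted anew in each of the 3 comparisons. Values cluster within about 0.1 of 0; the left panel is balanced around 0, and in the other 2 panels 61 and 66 of the 80 points are below 0.

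In ob/ob against control, no ribosomal protein probe set passed the adjusted threshold either, against 17 of all probe sets or 0.125%. The smallest adjusted p was 0.3. The values were small and mostly on one side: 61 of 80 were below 0, against 50.2% of all tested, with a median of -0.0352 against -0.000513. The large subunit had 26 of 34 below 0 (median -0.04), the small subunit 28 of 37 (median -0.0263) and the paralogs 6 of 7 (median -0.0616). At an unadjusted p of 0.05, 1 probe set was higher and 4 were lower, where 5.75% and 6.12% of all were. The share of single members past that threshold was thus no larger than the background. In 75 of the 80, or 93.8%, the confidence interval lay within a 1.25-fold difference, against 67.3% of all tested. The share was 97% over the 394 other probe sets at or above the family's median signal. Narrow intervals were thus not particular to the family.

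The same lean was found outside the family. Among the 394 other probe sets at or above 13900, 77.2% were below 0 in ob/ob, with a median of -0.0371. In each array the members' median deviation from the control mean tracked that of these other bright probe sets (r = 0.87 over the 17 arrays, a description, since both come from the same array and its scaling). The members' deviations ran from -0.063 to 0.062 in the controls and from -0.092 (STZ 2) to 0.083 (STZ 3) in the STZ mice. In the ob/ob mice they were -0.020, -0.033, 0.015, -0.032 and -0.099, so 4 of 5 were below the control mean and 1, ob/ob 5, was below the lowest array of the other groups. Without ob/ob 5, the median fold change was -0.0146 with 52 of 80 below 0; without control 4 it was -0.0217. With each array centred on the other bright probe sets, a setting chosen after seeing the data, it was -0.00656 with 42 of 80 below 0, and with quantile normalization -0.00711 with 48 of 80.

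**Figure D3:**
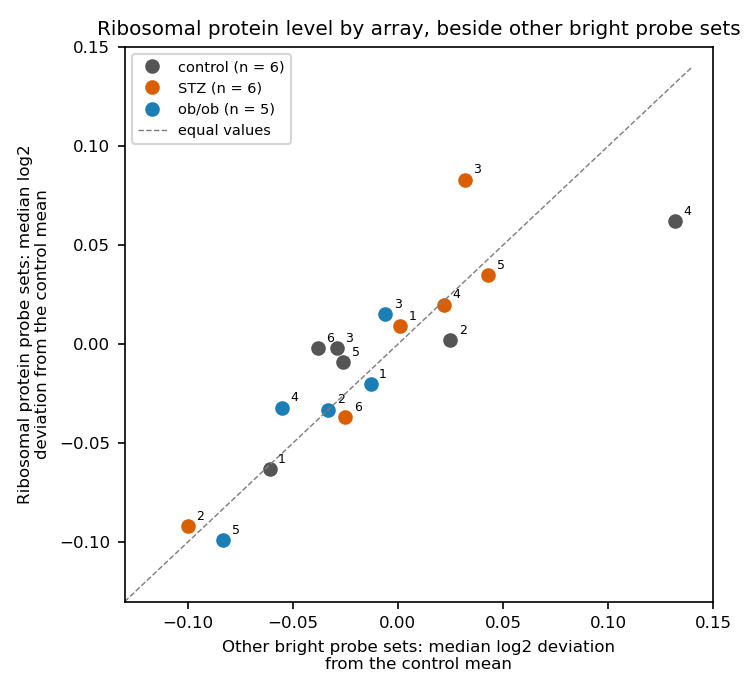
Median log2 deviation from the control mean of the 80 ribosomal protein probe sets (vertical) against that of 394 other bright probe sets (horizontal), 1 point per array, numbered by replicate and coloured by group, with a dashed line of equal values. Most arrays lie near the line (r = 0.87), with STZ 2 and ob/ob 5 lowest and STZ 3 and control 4 highest for the family. Control 4 is under the line (0.062 for the family against 0.132) and STZ 3 above it (0.083 against 0.032).

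Markers of neighbouring tissue were higher in the ob/ob group. The mean log2 signal of 25 probe sets for striatum, cortex and thalamus was 10.45 in the controls (10.22 to 10.66), 10.54 in STZ (10.32 to 10.66) and 10.73 in ob/ob (10.61 to 10.84). The mean over 9 hypothalamus probe sets was 11.41, 11.30 and 11.21. Those are largely peptide genes that differed one by one in ob/ob, with Pomc at -0.75 and Npy at 0.27 against control. Their mean therefore cannot be read as tissue content alone. Ttr, a marker of choroid plexus, had geometric mean signals of 428, 533 and 2190, without overlap between ob/ob and control (log2 fold change 2.35 ± 0.494, adjusted p = 0.0558). Foxj1, of ciliated ependyma and the only other tested probe set of that list, was at -0.16 ± 0.126 in ob/ob (adjusted p = 0.666). In ob/ob against control, 9 of 9 microglia probe sets were below 0 (median -0.0698), where 50.2% of all tested were. Of these, 1 had an unadjusted p under 0.05. Endothelium and pericytes had 9 of 10 below 0 (median -0.103), neurons 5 of 8, astrocytes 7 of 16 and oligodendrocytes 5 of 16 (median 0.0741). At an unadjusted p of 0.05 in limma, 3 astrocyte probe sets were lower and 0 higher, beside 6.12% and 5.75% of all. They were of Aqp4 (-0.29 ± 0.0605, adjusted p = 0.0558, and -0.22 ± 0.0701) and S100b (-0.19 ± 0.0743). Endothelium and pericytes had 2 lower and 0 higher, neurons 1 and 1, and oligodendrocytes 0 and 2. With the neighbouring-region mean as a covariate, the median of the ribosomal proteins was -0.0149 with 48 of 80 below 0. That mean itself differed between the groups, so such a fit separates group and covariate only in part. The part of the neighbouring tissue or of the listed cell types in the remaining difference was not tested.

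The 5 probe sets under an unadjusted p of 0.05 in ob/ob had differences of 0.11 to 0.23 in size. Rps3a1, a small subunit protein near the exit of the messenger channel, had signals of 24100, 25800 and 27500 (lowest, median, highest) in the controls and 23500, 25500 and 27000 in STZ. The ob/ob mice had 24600, 23900, 25200, 23600 and 22700, toward the low end of both groups but overlapping them. The fold change was -0.11 ± 0.0422 (adjusted p = 0.3).

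Rpl13a encodes a large subunit protein that is also known to leave the ribosome and silence inflammatory messengers. On one of its 4 tested probe sets (1455001_x_at) the controls ran from 8960 over 9350 to 10400 and the ob/ob mice had 8780, 8500, 8790, 8280 and 8790, so that every ob/ob mouse was below every control. This was the only ribosomal protein probe set lower without overlap in that comparison, where 1.07% of all probe sets were; none was higher without overlap, where 0.84% were. The STZ mice ran from 8510 over 10000 to 10900. The fold change against control was -0.15 ± 0.0619 (adjusted p = 0.35). The other 3 Rpl13a probe sets gave -0.08 ± 0.0783, -0.10 ± 0.0531 and -0.05 ± 0.0366, on the same side.

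Rpl22, an RNA-binding protein of the large subunit that cells can lack without losing their ribosomes, gave opposite values on its 2 probe sets. On 1416603_at the controls ran from 2630 over 3750 to 3980 and STZ from 2830 over 3180 to 3950, and the ob/ob mice had 2870, 2920, 3200, 2990 and 2890. On 1448398_s_at the controls ran from 2550 over 2710 to 3060 and STZ from 2540 over 2960 to 3130, and the ob/ob mice had 3180, 3080, 2840, 2850 and 3140. All 5 ob/ob mice were thus under the control median on the first, and above it on the second, where 3 of them exceeded the highest control. The fold changes were -0.23 ± 0.0952 (adjusted p = 0.342) and 0.14 ± 0.0597 (adjusted p = 0.366), so no direction can be given for the gene. Its paralog Rpl22l1, which rises when Rpl22 is lost in other systems, had 13600, 15500 and 16300 in the controls and 14600, 14500, 15700, 14800 and 13600 in ob/ob, a fold change of -0.06 ± 0.0537.

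The fifth probe set under 0.05 in ob/ob was 1426162_a_at of Rpl7. The controls ran from 11100 over 11700 to 12200, and the ob/ob mice had 11200, 11200, 10600, 10100 and 11100, all in or under the lowest part of the control range. Its fold change was -0.11 ± 0.0421 (adjusted p = 0.317), beside -0.04 ± 0.0332 and 0.01 ± 0.0393 on the other Rpl7 probe sets. The one that was high in STZ was therefore not the one that was low in ob/ob.

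**Figure D4:**
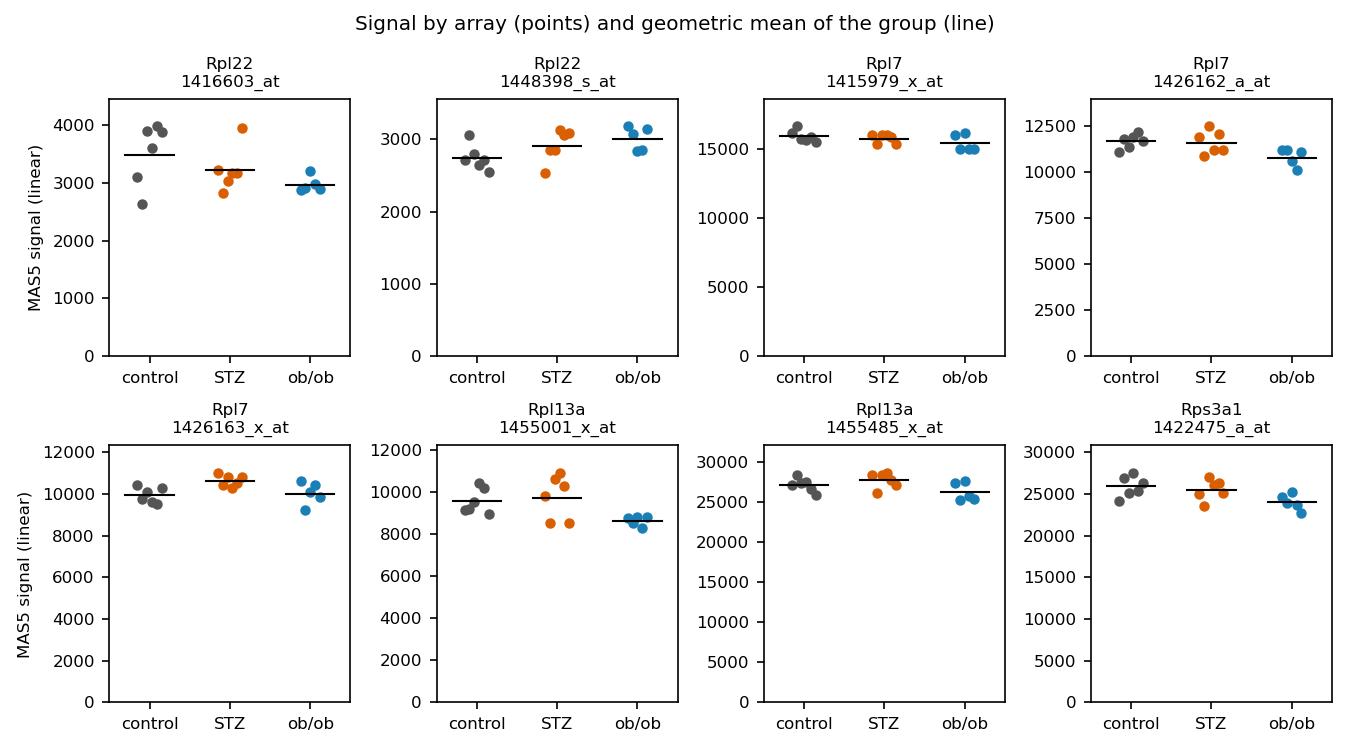
MAS5 signal on a linear axis from 0 for 8 probe sets of Rpl22, Rpl7, Rpl13a and Rps3a1, with 1 point per array and a line at the geometric mean of each group. The 2 Rpl22 probe sets differ in opposite directions, and on Rpl13a 1455001_x_at the 5 ob/ob arrays (8280 to 8790) lie under all 6 controls.

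The highest values in ob/ob had wide errors. Rps27, a zinc-finger protein of the small subunit with a single tested probe set, had 759, 1140 and 1330 in the controls and 1040, 1510, 1600, 1220 and 1450 in ob/ob, a fold change of 0.37 ± 0.218 (adjusted p = 0.536). One probe set of Rpl37a (1416218_x_at) gave 0.53 ± 0.319 from signals of 376, 492 and 1260 in the controls and 1340, 403, 774, 1150 and 672 in ob/ob. Its gene's other 2 probe sets were within 0.05 of 0. The paralog Rps27l, a target of p53, was below 0 on each of its 3 probe sets in both comparisons with control, at -0.04, -0.10 and -0.07 in STZ and -0.05, -0.15 and -0.10 in ob/ob, with adjusted p at or above 0.463. These comparisons share the control arrays.

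The stalk proteins Rplp0 and Rplp2, which draw the elongation factors to the ribosome, gave values close to control. Rplp0 had 11200, 12300 and 13400 in the controls, 11600, 12700 and 14700 in STZ, and 11900, 12900, 13600, 12400 and 12100 in ob/ob. Its fold changes were 0.06 ± 0.0538 and 0.03 ± 0.0565. Those of Rplp2 were -0.03 ± 0.043 and -0.02 ± 0.0451, and all intervals of both genes lay within 1.25-fold. The ribosomal proteins that carry other names, Fau and Rpsa, gave -0.01 and 0.02 in STZ and -0.04 and -0.02 in ob/ob.

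Set against each other, ob/ob and STZ gave 0 called ribosomal protein probe sets, where 5 of all, or 0.0368%, were called. Of the 80, 66 were below 0, against 50.1% of all tested, with a median of -0.0389 against -0.000166. At an unadjusted p of 0.05, 8 were lower in ob/ob, or 10% of the members where 2% of all probe sets were, and 0 were higher, where 1.93% were. The 8 came from 5 genes, Rpl13a, Rpl7, Rps10, Rps24 and Rps4x, and 5 were _x_at probe sets, which can also bind related transcripts. No member had groups without overlap, higher or lower, where 0.147% and 0.273% of all did. The adjusted p-values of the members all rounded to 1.

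This count of 8 rested on the model and on single mice. The number of members lower in ob/ob was 1 when the variance was not tied to signal, 3 with quantile normalization, 3 with the arrays centred on the other bright probe sets, 2 without STZ 3 and 3 without ob/ob 5. Those arrays were the highest and the lowest for the family. The bright probe sets outside the family again leaned the same way, with 78.7% below 0 and a median of -0.0314. At an unadjusted p of 0.05, 11 of these 394 were lower and 2 higher. That share of lower probe sets was smaller than the members' 10% and nearer the 2% of all probe sets.

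Rps24, a small subunit protein whose loss of a copy causes Diamond-Blackfan anaemia in people, had each of its probe sets below 0 in this comparison. Its 4 tested probe sets were at 0.07, 0.04, 0.08 and 0.01 in STZ and at -0.02, -0.05, -0.02 and -0.05 in ob/ob, both against control, and at -0.09, -0.09, -0.09 and -0.06 between ob/ob and STZ. On 1428530_x_at the STZ mice ran from 15600 over 16200 to 17900 and the ob/ob mice had 15300, 15300, 15800, 15700 and 14900, with overlap (adjusted p = 1). Rps4x, the X-linked copy of this small subunit protein, ran from 16700 over 17800 to 18300 in STZ against 17500, 16200, 17100, 16600 and 16200 in ob/ob, at -0.08 ± 0.0368. Rps4l, a transcribed pseudogene in RefSeq, gave 0.16 ± 0.11.

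Genes with several probe sets show how far a single value can be read. For 19 of the 44 tested genes there were 2 or more tested probe sets. In STZ against control all probe sets of a gene were above 0 for 7 genes, below 0 for 2 and mixed for 10. In ob/ob against control they were all below 0 for 7, all above for 0 and mixed for 12, and in ob/ob against STZ all below for 12 and mixed for 7. Rpl35 was below 0 in ob/ob on each of its 5 probe sets, from -0.09 to -0.02, and Rps28 on each of 3, from -0.09 to -0.04, none with a p under 0.05. Leaving out the 37 _x_at probe sets gave medians of -0.00273, -0.0376 and -0.03 in the 3 comparisons over the other 43.

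**Figure D5:**
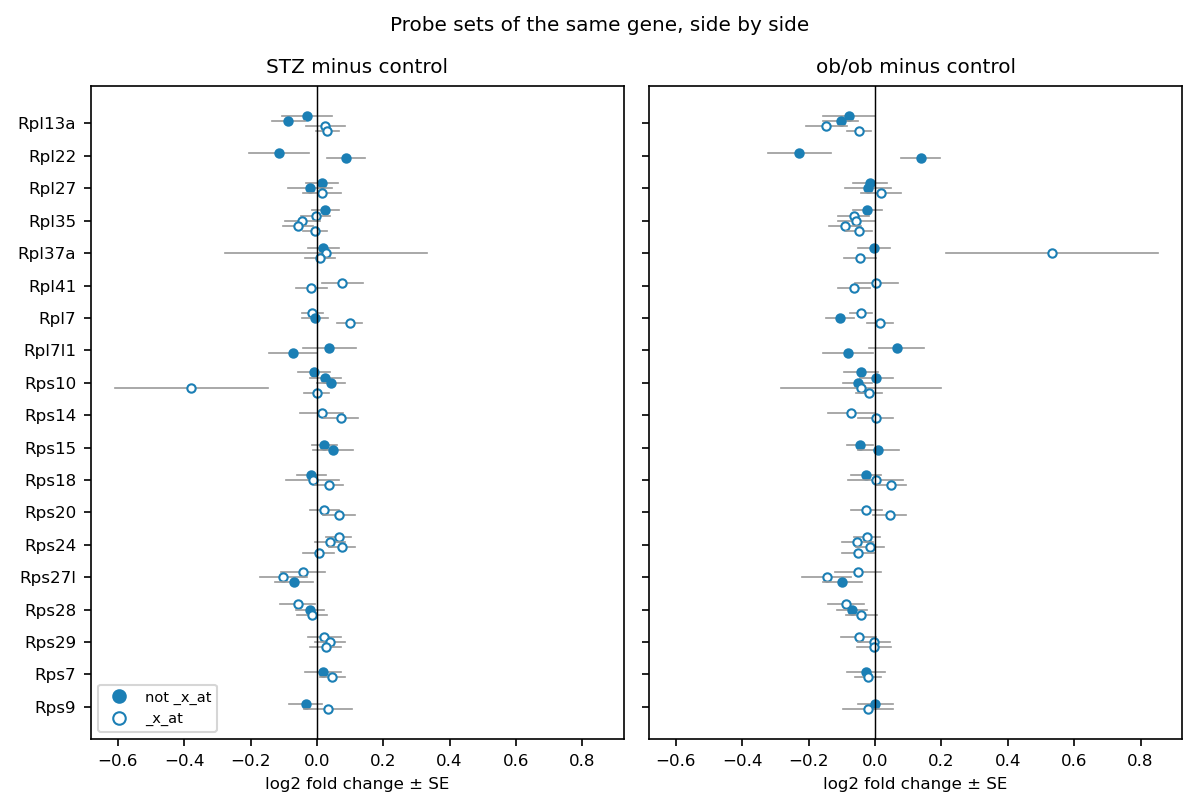
Log2 fold change ± SE of every tested probe set for the 19 genes with several, in STZ against control (left) and ob/ob against control (right), with _x_at probe sets as open circles. Rpl35 and Rps28 lie on the low side throughout on the right, Rpl22 splits to both sides, and single probe sets of Rpl37a (right, 0.53) and Rps10 (left, -0.38) stand far from the others of their gene.

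The values of genes with and without a pyrimidine tract at the start can be set side by side. In ob/ob against control, 37 of 46 probe sets of 26 genes with a tract were below 0 (median -0.0412), as were 15 of 22 probe sets of 12 genes without one (median -0.0248). In STZ the medians were 0.00321 and 0.0145. No test of the difference between these groups of genes was made.

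Other parts of the translation machinery were read from lists. Among translation factors and further TOP messenger genes, 0 of 34 probe sets were called in any comparison. Their medians were -0.00287 in STZ and -0.022 in ob/ob, with 1 higher and 1 lower at an unadjusted p of 0.05 in STZ and 1 and 5 in ob/ob. Over all probe sets tested, 3.87% were higher and 4.38% lower at that threshold in STZ, and 5.75% and 6.12% in ob/ob. The counts of this and the following lists are to be read beside these shares. The nascent chain chaperone subunit Naca was at -0.11 ± 0.0364 in ob/ob (adjusted p = 0.242), from a geometric mean of 15600 in the controls to 14500, and the nucleolar chaperone Npm1 at -0.11 ± 0.0456 (adjusted p = 0.338). The histone chaperone gene Nap1l1 was at 0.19 ± 0.067 on 1420477_at (adjusted p = 0.247) and at -0.15 ± 0.117 on 1437945_x_at. The mitochondrial ribosomal proteins, a separate family of 74 genes, had 0 of 109 called and medians of -0.0212 and -0.0179, with 4 higher and 6 lower at an unadjusted p of 0.05 in STZ and 1 and 7 in ob/ob.

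Of 69 probe sets for ribosome assembly factors, 1 passed. Brix1, which acts in the maturation of the large subunit, fell in ob/ob by 0.50 on the log2 scale on 1423841_at (SE 0.0914, adjusted p = 0.0305), from a geometric mean of 527 in the controls and 447 in STZ to 373, without overlap between ob/ob and control. Its other probe set (1451144_at) gave -0.03 ± 0.0815, so the gene's probe sets do not say the same. With the neighbouring-region markers as a covariate, 0 probe sets of any gene were called in ob/ob against control, Brix1 included. That covariate ran from 10.22 to 10.66 in the controls and from 10.61 to 10.84 in ob/ob. Group and covariate are therefore hard to separate in this fit, and the loss of the call does not decide on Brix1. Pes1, of the complex that processes the large subunit's RNA, was at -0.30 ± 0.0889 in ob/ob (adjusted p = 0.167). Emg1, a methyltransferase of the small subunit's RNA, was at -0.16 ± 0.0489 (adjusted p = 0.169). Both were without overlap with control, where 1.07% of all probe sets were lower without overlap. The highest value of the list was that of Bysl, a factor of small subunit assembly, at 0.52 ± 0.188 (adjusted p = 0.265). In ob/ob the list of 69 had 33 probe sets above 0 and 36 below. At an unadjusted p of 0.05, 4 were higher and 6 lower, beside 5.75% and 6.12% of all probe sets. In STZ these were 0 and 4, beside 3.87% and 4.38%.

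Among 31 probe sets for mTORC1 and its control of TOP messengers, 0 were called, with 3 higher and 1 lower at an unadjusted p of 0.05 in STZ and 2 and 1 in ob/ob. Ddit4, a stress-induced inhibitor of mTORC1, was at 0.42 ± 0.171 in STZ (adjusted p = 0.518), and Sesn1, a sestrin that holds mTORC1 back, at 0.15 ± 0.0699 in STZ and 0.25 ± 0.0733 in ob/ob (adjusted p = 0.594 and 0.162). Tial1, which binds TOP messengers under starvation, was at -0.45 ± 0.146 and -0.36 ± 0.153 (adjusted p = 0.374 and 0.36). Mtor itself was at 0.09 ± 0.0418 in ob/ob (adjusted p = 0.395). Of 25 probe sets for the rescue of stalled ribosomes, 0 were called and at an unadjusted p of 0.05 there were 0 in STZ and 2 higher and 2 lower in ob/ob, with Etf1, a release factor, at 0.38 ± 0.172 in ob/ob (adjusted p = 0.387).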

How the data were processed

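The deposited intensity values were MAS5 signals that the authors computed for each probe set on each array, on a linear scale, per the submitters' processing notes. The version, scaling target and genome build are not given in the sources used here. Every array had the same 2% trimmed mean, 1500.4. Here, log2 signals were used without the 64 control probe sets, and a probe set was tested if its mean reached the 40th percentile (a geometric mean of 435). Across the remaining 13576 probe sets, 3 group means were fitted with limma 3.58.1 (lmFit, eBayes with trend) in R 4.3.3, and p-values were adjusted by Benjamini-Hochberg over all of them at a threshold of 0.05. No culture, batch or pairing is given beyond 1 hypothalamus per array, so p-values speak only of the spread among these samples. The number of arrays limits the precision. The members, lists and tests were chosen with earlier results of these data known.

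Genes were named by a rule: members called, those with the smallest p in each direction and comparison, the brightest and dimmest genes, the probe sets with the largest and smallest SD over the controls, and some fixed genes and paralogs. It covered 41 probe sets of 27 genes. Other members are named beside them to show how probe sets of a gene compare, and list genes by their unadjusted p. Start regions came from RefSeq, GRCm38.p6. Alternatives covered the filter, normalization, pseudocount (50), variance model, covariates, a replicate block, probe set choice and leaving out each array. Same-numbered mice deviated together in 1 of 16 pairs by a correlation over 0.1 (-0.17 to 0.11). No pairing by number was thus seen, though a weak one could be missed. The labels do not say what the numbers mark, and the main fit did not use them as pairs.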

Additional observations from a re-analysis of the deposited data

Results flagged for a closer look

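In 126 groups of 5 or 6 arrays, those of the 41 named probe sets and of the family's median deviation, 11 held an array far from the rest by Dixon's criterion. Its nominal rate is about 1 in 20. The named probe sets were partly chosen by their p or SD in these same values, and they share arrays. These 11 groups are therefore not to be read as an excess over that rate. Control 4 was high on 4 of them: Rps24 (1453362_x_at) at 16600 against 15400 to 15700 in the other controls, Rps18 (1455572_x_at) at 17600 against 15200 to 16000, Rps10 (1438723_a_at) at 25100 against 20800 to 22100, and Rpl37a (1416218_x_at) at 1260 against 376 to 580. This array was also the highest control for the family as a whole. STZ 2, the lowest STZ array for the family, was low for Rps4x at 16700 against 17700 to 18300 and for Rps28 (1451101_a_at) at 23800 against 26500 to 27300, and high for the untested Rpl3l at 141 against 25.7 to 43.3. Ob/ob 5, the lowest of its group, was low for Rpl35 (1455950_x_at) at 12400 against 13600 to 14000 and high for Rps10 (1439374_x_at) at 8530 against 4020 to 4900. Ob/ob 2 was low for Rpl13a (1433928_a_at) at 3050 against 3320 to 3410, and STZ 5 for Rpl7l1 (1426386_at) at 663 against 805 to 893. The family median with control 4 or ob/ob 5 left out is given with the ob/ob comparison above.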

How the results depend on the processing

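The count of ribosomal protein probe sets called was 0 in every comparison under each of 13 other settings and with each array left out. The median fold change was small under all of them but not fixed in size: it ran from -0.0469 to -0.00656 in ob/ob against control, from -0.0443 to -0.0132 in ob/ob against STZ and from -0.00273 to 0.0167 in STZ against control; with 1 array left out, from -0.0449 to -0.0146, from -0.053 to -0.0191 and from -0.0107 (without STZ 3) to 0.022. Counts at an unadjusted p of 0.05, in either direction, varied, and the cause was not tested. In STZ against control (1) the count was 4 with no filter, 2 with quantile normalization, 2 with a replicate block, 3 with the Gapdh 3′ to 5′ ratio as covariate, 3 with arrays centred on other bright probe sets (chosen after seeing the data), and 0 without _x_at probe sets or with the mean of a gene's probe sets. Leaving out an array gave 1 to 5, with 5 without control 2 or control 4 and 4 without STZ 3. In ob/ob against control (5) it was 1 with the neighbouring-region covariate and 2 with the gene mean; leaving out an array gave 2 (without ob/ob 5) to 8 (without control 2), with 3 without control 5. In ob/ob against STZ (8) it was 3 with quantile normalization, 1 without the variance trend, 5 with a replicate block, 2 with the neighbouring-region covariate, 3 without _x_at probe sets, 4 with the gene mean and 3 with the added centring. Leaving out an array gave 3 to 12, at most 5 without any of STZ 1, 3, 4, 5 or 6 or ob/ob 2, 4 or 5. With the mean of a gene's probe sets, Rpl22 turned to -0.0458 in ob/ob against the 0.14 of 1448398_s_at, and Rps10 to 0.0332 in ob/ob against STZ from the -0.09 of 1438723_a_at, since each mean takes in a probe set of opposite sign. The replicate block left 0 ribosomal protein probe sets called in each comparison. Over all probe sets, the number called with the block was 5 in STZ against control, where the main fit had 7. It was 19 in ob/ob against control (main fit 17) and 1 in ob/ob against STZ (main fit 5). In 2 of the same-numbered pairs a mouse correlated best with its own number.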
